A study of Mus musculus with 12 samples.

Results

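Endothelial cells, the cells that line blood and lymphatic vessels, were selected on their measured RNA from 12 single-cell RNA-seq libraries of the mouse mammary gland. To be kept, a barcode needed 500 genes, 1000 UMIs (unique molecular identifiers, each standing for 1 captured RNA molecule) and no more than 5% of its UMIs from mitochondrial genes. A kept barcode was counted as endothelial with at least 3 UMIs of Pecam1, Cdh5 and Cldn5 together, at least 2 of these genes detected, and no UMI of Ptprc, Pdgfra or Epcam, which mark immune cells, fibroblasts and epithelial cells. Of 58620 barcodes 46257 were kept, and 128 of them were endothelial, a share of 0.277% (95% exact binomial interval 0.231 to 0.329). Cells with a UMI of Prox1 or Mmrn1 were counted apart as lymphatic. There were 55 lymphatic cells and 73 cells without these UMIs, termed blood endothelial cells here. Since the cells were chosen by the values of these genes, the levels of any gene in them are given as a description.

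Every library came from the fourth mammary glands of 43-week-old female C57BL/6J mice and stood alone in its group, so no condition had a replicate. How many animals a library held was not given in the sources used here. One library came from Intact mice. All other mice had received 160 mg/kg/day of 4-vinylcyclohexene diepoxide (VCD), a chemical that depletes ovarian follicles and models menopause, for 15 days by intraperitoneal injection, from 9 weeks of age. A set of 9 libraries crossed hormone with polybrominated diphenyl ethers (PBDE), flame retardants: sesame oil vehicle, E2 or E2 and P4, each with no, low or high PBDE. E2 (estradiol, 1 µg/animal/day) and P4 (progesterone, 1 mg/animal/day) were given for 1 week. The low PBDE mixture (0.05 mg/kg/day of PBDE-47, 0.0028 of PBDE-100 and 0.0063 of PBDE-153) was given in the food for 20 weeks, starting 100 days after VCD onset, and the high one, 20 times those doses, for 1 week, so that dose and duration cannot be told apart. The remaining libraries were VCD_E2_ICI, with 5 mg of the estrogen receptor degrader ICI beside E2, and VCD_Vehicle_NormEnv, vehicle mice with a possible environmental PBDE exposure from plastic cages.

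Blood and lymphatic endothelium share cell adhesion proteins such as PECAM1 and VE-cadherin (Cdh5) but differ in task. Blood capillaries deliver oxygen and fatty acids to the fat pad, whereas lymphatic capillaries drain fluid and guide dendritic cells to the lymph node with the chemokine CCL21. Vascular endothelial growth factors (VEGF) act on both through related receptors: VEGFR1 (Flt1) and VEGFR2 (Kdr) govern blood vessel growth, and VEGFR3 (Flt4) governs lymphatic growth under the transcription factor PROX1.

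The genes on which the classes turned lay in the GRCm38 build as follows. Pecam1 was at chr11:106654217-106750628 on the minus strand, Cdh5 at chr8:104101625-104144511 on the plus strand and Cldn5, which encodes the tight junction protein claudin-5, at chr16:18776847-18778262 on the plus strand. Prox1 was at chr1:190118035-190170714 (minus strand) and Mmrn1, an extracellular matrix glycoprotein, at chr6:60924976-60989378 (plus strand). The promoters of the receptor pair that divided the classes, Flt1 and Flt4, and of Cldn5, which divided the blood cells, are shown from 250 bases before to 50 after the RefSeq start in GRCm38.p6. The motif AGGAAG, an extended form of the ETS core GGAA, is in capitals. Both strands were searched (AGGAAG and CTTCCT). ETS factors are broadly required for endothelial transcription.

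Flt1 (chr5:147725962-147726261, minus strand): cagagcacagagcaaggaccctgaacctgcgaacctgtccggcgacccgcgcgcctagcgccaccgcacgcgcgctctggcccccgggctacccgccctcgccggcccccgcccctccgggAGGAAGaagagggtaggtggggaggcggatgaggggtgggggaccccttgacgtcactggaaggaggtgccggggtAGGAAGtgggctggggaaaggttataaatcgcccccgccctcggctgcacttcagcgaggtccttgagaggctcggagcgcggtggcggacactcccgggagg

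Flt4 (chr11:49609429-49609728, plus strand): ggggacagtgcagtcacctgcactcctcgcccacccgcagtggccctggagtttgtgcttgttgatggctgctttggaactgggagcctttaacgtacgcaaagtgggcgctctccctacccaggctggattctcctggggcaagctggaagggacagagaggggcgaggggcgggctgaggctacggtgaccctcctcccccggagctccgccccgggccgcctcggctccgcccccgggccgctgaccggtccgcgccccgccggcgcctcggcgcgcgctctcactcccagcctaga

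Cldn5 (chr16:18776597-18776896, plus strand): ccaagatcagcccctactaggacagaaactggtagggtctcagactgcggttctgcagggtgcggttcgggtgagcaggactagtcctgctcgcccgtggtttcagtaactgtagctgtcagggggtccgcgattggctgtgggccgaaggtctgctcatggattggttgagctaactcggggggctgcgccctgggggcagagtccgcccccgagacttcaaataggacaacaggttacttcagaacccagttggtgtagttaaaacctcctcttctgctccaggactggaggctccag

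The Flt1 window held 2 matches, and the Flt4 and Cldn5 windows held 0. The shorter core GGAA, which also occurs in the Flt4 window, was not counted. Among all 32851 promoters of this length, 11613 (35.4%) held the motif, and a match is a description of the letters, not a binding site.

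The gate left most cells well inside its limits. Members held a median of 20 UMIs of the gate genes, from 3 to 214, and 64 held all 3 genes. At the lower limit, 8 members had exactly 3 such UMIs, while 8 barcodes just outside had 2 UMIs of 2 genes and 18 had 3 or more UMIs of 1 gene. A further 69 barcodes met the gate but held an exclusion gene, 59 of them Pdgfra. The label fitted 28 endothelial genes that the gate did not use, among them Egfl7, Tie1 and Eng: blood cells had a median of 22 of these genes and lymphatic cells a median of 19, with 7 as the fewest in any cell. Of 13 lymphatic genes other than Prox1 and Mmrn1, lymphatic cells held a median of 13 and blood cells a median of 2. By the choice of class every lymphatic cell had Prox1 or Mmrn1, and 54 of the 55 held both.

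One library stood apart. VCD_Low_E2_P4 held 51 of the 128 cells (39.8%), 39 of them blood cells, and 27 of these 51 had over 1% of their UMIs from marker genes of other cell types. No member elsewhere did. The 10 fibroblast markers took 1.51% of the summed UMIs of its blood cells against 0.0318% to 0.237% in the other libraries, and its lymphatic cells carried 0.384% against 0.0428% to 0.108%. Its immune and epithelial cells also had the most, 0.479% against 0.0788% to 0.237% elsewhere and 1.06% against 0.0679% to 0.160%. It also had the most kept barcodes (7570, against 1996 to 4951 elsewhere), and its members were shallow, with a median of 5021 UMIs. The library totals ran from 41737881 to 109224969 UMIs. Across libraries 740 of 57499 distinct barcodes occurred more than once, and 8 members had such a barcode, but none of these was a member in a second library. Doublet scores placed 0 of the 128 members among the expected number of top-scoring cells of their library. The scores rest on doublets simulated from each library, where endothelial cells were at most 0.674% of kept barcodes. Doublets holding such a cell were thus seldom simulated, and the 0 does not exclude them.

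Endothelial cells were rare in every library and the shares varied widely. VCD_Low_E2_P4 had the highest share, 0.674% (0.502 to 0.885), followed by VCD_Vehicle_NormEnv with 0.522% (0.315 to 0.815, 19 cells) and VCD_Low_E2 with 0.444% (0.268 to 0.693, 19 cells), whose intervals overlapped. The middle was held by VCD_E2 (9 cells, 0.245%), Intact (8 cells, 0.231%) and VCD_E2_ICI (6 cells, 0.212%). VCD_Vehicle had 5 cells (0.131%), VCD_High_PBDE 4 (0.132%), VCD_E2_P4 3 (0.0686%), and VCD_High_PBDE_E2 and VCD_High_PBDE_E2_P4 2 each. VCD_Low_PBDE had 0 of 4951, which allows a share of up to 0.0606% by the limit of 3 counts (exact binomial 0 to 0.0745). The 2 vehicle libraries spanned 0.131% to 0.522%. These intervals cover counting error only.

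Across the 9 crossed libraries no difference in the endothelial share passed the test. With E2 or E2 and P4, the log2 share was higher by 1.78 on average than without hormone, but the hormone libraries averaged higher at 1 of 3 PBDE levels, the low one, where the library without hormone had 0 endothelial cells (exact permutation test, two-sided, p = 0.222, adjusted p = 0.667 over 3 tests; the smallest p this layout allows is 0.0370). Low PBDE differed from none by 0.02 (exact permutation p = 1.0, adjusted p = 1.0) and high PBDE by -0.25 (exact permutation p = 1.0, adjusted p = 1.0), and these layouts could not go below 0.25. Without VCD_Low_E2_P4 the E2 difference was 1.68 (exact permutation p = 0.611), and the low PBDE difference turned to -1.51.

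**Figure D1:**
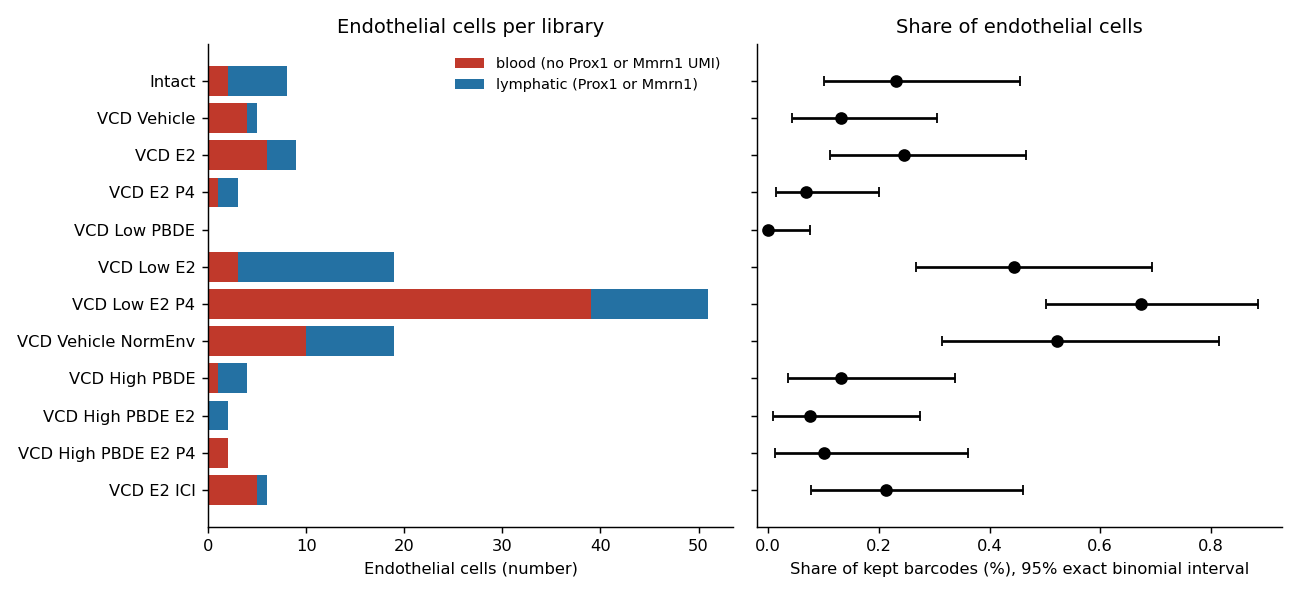
Endothelial cells in each of the 12 libraries. Left, the number of blood (red) and lymphatic (blue) cells; right, the share of kept barcodes in percent with its 95% exact binomial interval. VCD_Low_E2_P4 holds 51 cells and VCD_Low_PBDE none.

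The make-up also differed from library to library. Lymphatic cells were 16 of 19 in VCD_Low_E2 and 6 of 8 in Intact, but 12 of 51 in VCD_Low_E2_P4 and 1 of 6 in VCD_E2_ICI. Lymphatic cells were the deeper class, with a median of 11190 UMIs and 3527 genes against 5937 UMIs and 2183 genes in blood cells. Levels below are CPM (counts per 1000000 UMIs) of counts summed over the cells of a class, and ranges over libraries use those with at least 3 cells of the class, 6 libraries for each.

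Lymphatic cells were dominated by one chemokine. Ccl21a, the CCL21 gene at chr4:42772860-42773993, took 31920 CPM (95% Poisson interval 31590 to 32260), from 16140 to 42090 CPM over libraries, while 73 blood cells together held 0 UMIs, so that the lymphatic level was at least 7240-fold higher. Ccl21a has near-identical copies, and how the counting divided reads among them is uncertain. Lyve1, a hyaluronan receptor of lymphatic capillaries, stood at 4524 CPM against 10.3, a 440-fold difference. Reln, which encodes the secreted protein reelin, stood at 1673 CPM and Nts, the precursor of neurotensin, at 1349 CPM, both with 0 UMIs in blood cells. Fgl2 (3407 against 109 CPM) and Pdpn, the podoplanin gene (443 against 22.1 CPM), were also higher. Most of their UMIs in blood cells came from VCD_Low_E2_P4, and the blood cells of the other libraries had 27.4 CPM of Fgl2 and 0 UMIs of Pdpn. Mmrn1 and Prox1, which chose the class, stood at 5110 CPM (2576 to 7019 over libraries) and 765 CPM (642 to 840).

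Of the VEGF receptors, Flt1 and Flt4 divided the classes and Kdr did not. Flt1 had 0 UMIs in 55 lymphatic cells and 1612 CPM in blood cells (1518 to 1710), at least 604-fold higher. It was 2591 CPM in VCD_Vehicle, 1953 in VCD_E2, 1388 in VCD_Low_E2, 1303 in VCD_Low_E2_P4, 1812 in VCD_Vehicle_NormEnv and 1484 in VCD_E2_ICI. Flt4 ran the other way, with 1166 CPM in lymphatic (1104 to 1231) and 82.4 CPM in blood cells (62.2 to 107), a 14.2-fold difference with no overlap between libraries of the classes. The co-receptor Nrp1 had 1 UMI in lymphatic cells and 1200 CPM in blood cells, whereas Nrp2 was 430 against 176 CPM with overlapping libraries. Kdr, the receptor both vessel types use, was 599 CPM in lymphatic and 804 CPM in blood cells, and the libraries overlapped.

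**Figure D2:**
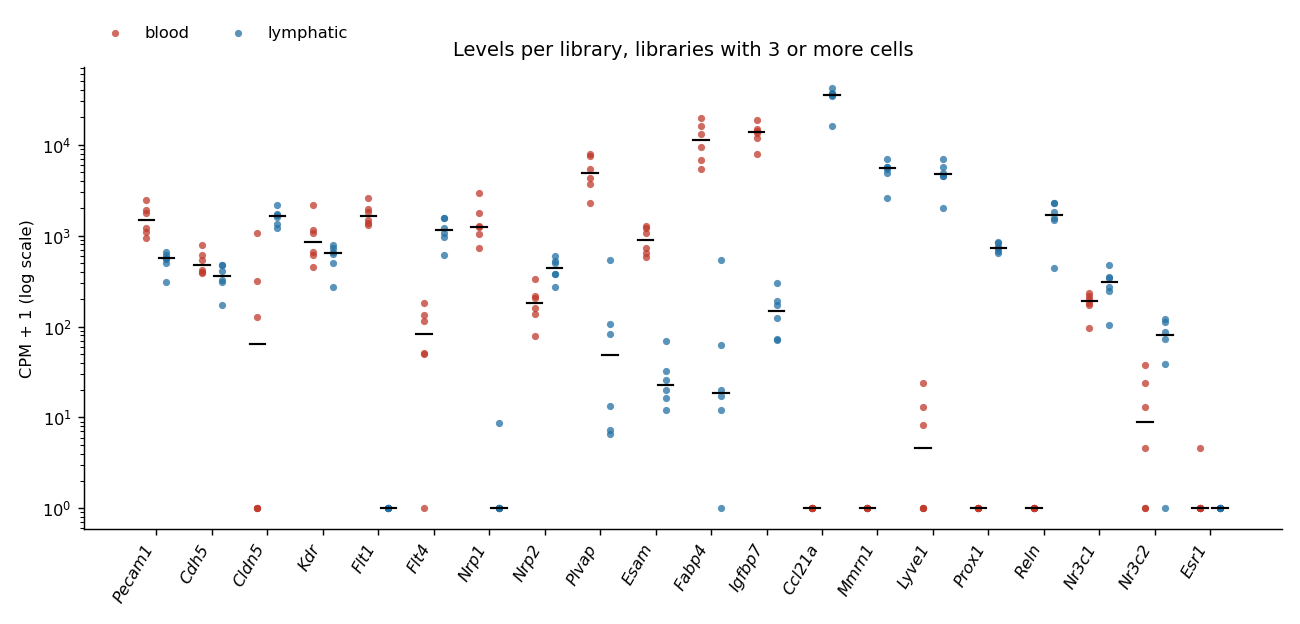
Levels of 20 genes in blood (red) and lymphatic (blue) endothelial cells, as CPM + 1 on a log scale. Each point is a library with 3 or more cells of the class and the bar is the median; Flt1 and Ccl21a separate the classes, while Kdr, Cdh5 and Nr3c1 overlap.

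Among 3941 genes at 50 CPM or more in either class, 310 (7.87%) were higher in lymphatic cells in every pair of libraries and 323 (8.2%) were higher in blood cells. This contrast was the one that chose the cells, so the list counts are a description. Of the 13 lymphatic genes other than Prox1 and Mmrn1, 11 were higher in lymphatic cells. Of the 28 endothelial genes outside the gate, 13 were higher in blood cells and 2 in lymphatic cells, the latter including Ecscr (838 against 254 CPM).

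Fabp4, Cd36 and Plvap stood higher in blood cells. Fabp4, a fatty acid carrier, stood at 10800 CPM against 264 CPM in lymphatic cells, and the fatty acid translocase Cd36 at 1271 against 198 CPM. Plvap, which forms the diaphragms of fenestrae and caveolae, stood at 4396 CPM (2269 to 7871 over libraries) against 165 CPM (5.52 to 542). Of 11 capillary genes tested 5 were higher in blood cells and 0 in lymphatic cells, against 8.2% and 7.87% of all genes. The vascular matrix proteins followed: Igfbp7 was 67.6-fold higher in blood cells (12450 against 184 CPM), Sparcl1 279-fold (1988 against 7.12 CPM) and Sparc 53.1-fold (3541 against 66.7 CPM). Of 14 basement membrane genes 7 were higher in blood cells, and 1 in lymphatic cells, beside the same shares of all genes. Col18a1, the source of endostatin, had 455 CPM in lymphatic against 106 CPM in blood cells. Sox17, an arterial transcription factor, and Esm1, a tip cell proteoglycan, had 263 and 187 CPM in blood cells and 0 UMIs in lymphatic cells. The venous and lymphatic regulator Nr2f2 was 727 CPM in lymphatic against 113 CPM in blood cells.

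Junction genes were partly shared by the classes. Cldn5 was 1646 CPM in lymphatic cells and 238 CPM in blood cells, where it ranged from 0 to 1068 CPM over libraries, and Cdh5 was alike at 424 and 479 CPM with overlapping libraries. Pecam1 was 581 against 1391 CPM. Outside the gate, the immunoglobulin-type junction genes stood higher in blood cells: Esam at 762 against 26.7 CPM (28.5-fold), Jam3 at 160 against 11.6 CPM and Jam2 at 259 CPM against 1 UMI. Of 12 genes tested from the whole list of junction and barrier genes 4 were higher in blood cells and 0 in lymphatic cells, against 8.2% and 7.87% of all genes.

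Interferon-induced genes and antigen presentation stood higher in blood cells. Of 26 interferon-induced genes 10 were higher in blood cells in every pair of libraries and 0 in lymphatic cells, with a median log2 ratio of -2.17 (lymphatic over blood) against 0.06 over all genes. The GTPase Iigp1 was 865 CPM in blood and 62.3 CPM in lymphatic cells. Of 9 genes of MHC presentation 5 were higher in blood cells. Over all genes 8.2% were higher in blood cells in every pair of libraries and 7.87% in lymphatic cells. The interferon list took 0.359% to 0.793% of the UMIs of blood cells in 6 libraries and 0.152% to 0.274% of those of lymphatic cells.

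Lymphatic cells fell into a large group and a small one. In 52 cells Ccl21a stood between 10410 and 76690 CPM, and in 3 cells it had 0 UMIs: both cells of VCD_High_PBDE_E2 and 1 of the 3 cells of VCD_High_PBDE. These were chosen after their values were seen, and they were deep, with a median of 37618 UMIs and 147077 UMIs in all. Prox1 was 1108 CPM in them and 714 CPM in the 52 others, and Mmrn1 was 1530 against 5649 CPM. Lyve1 had 0 UMIs in the 3 cells and 5206 CPM in the others, at least 255-fold higher in these. The mechanosensitive channel Piezo2 (246 CPM in the others, 38 cells) and the scaffold protein Akap12 (478 CPM, 45 cells) also had 0 UMIs in the 3.

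Other genes were found in the 3 cells and not in the 52, or stood higher in the 3. Edn1, the vasoconstrictor endothelin-1, had 54 UMIs over all 3 cells (367 CPM) and 0 in the others, at least 120-fold higher. Ackr4, a receptor that scavenges CCL21 and is known from the lymphatic ceiling of the lymph node sinus, had 15 UMIs in 2 of the 3 cells and 0 in the others, at least 33.2-fold higher. Selp (P-selectin) had 29 UMIs in 2 cells and 0 in the others. Fabp4 was 1890 against 19.4 CPM, Plvap 884 against 56.3 CPM and Nts 4222 against 916 CPM. Lymph nodes had been removed from the glands before dissociation, as the study's methods state. One of the 3, in VCD_High_PBDE, held 7 of 10 immune markers and 0.896% of its UMIs from that list. The remaining 2 were the only endothelial cells of their library, so a trait of the cells and a trait of the library cannot be told apart.

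Blood cells differed among themselves in Cldn5. No Cldn5 UMI was found in 49 of 73 blood cells, which entered through Pecam1 and Cdh5, and 16 cells had 2 or more. This split was chosen after the values were seen, and it uses a gate gene. A cell without Cldn5 had to hold both Pecam1 and Cdh5, while a cell with it could lack either. Entry thus differed between the sides, and their levels are a description. Outside VCD_Low_E2_P4 there were 6 such cells, in VCD_E2, VCD_Vehicle_NormEnv and VCD_High_PBDE, with 3141 CPM of Cldn5, against 28 cells with 0 or 1 UMI. One of the 6, in VCD_E2, held 50.1% of their UMIs and 10 of 11 pericyte markers, so values of the other 5 are also given. Plvap was 698 CPM in the 6 and 1399 in the 5, against 5352 in the 28. Igfbp7 was 3739 CPM in the 6 and 5897 in the 5, against 13770, and Kdr 424 and 249.9 against 1123 CPM. Fabp4 ran the other way, with 29960 CPM in the 6 and 18640 in the 5, against 9682. Among 3865 genes at 50 CPM or more, 20.0% were at least 2-fold higher in the 6 and 21.5% lower (in the 5, 21.7% and 30.2%). Of 10 arterial genes at this level 6 were at least 2-fold higher in the 6 and 2 lower, and in the 5 they were 7 and 2. Sema3g, an arterial semaphorin, had 13 UMIs in 3 of the 6 cells and 0 in the 28, Fbln5 was 474 against 13.8 CPM (4 cells), Sox17 748 against 280 CPM (5 cells) and Stmn2 274 against 13.8 CPM (2 cells). Lower were Hey1 (24.9 against 72.0 CPM) and Cxcl12 (723 against 2435 CPM), also of the arterial list. Of 15 capillary genes 8 were at least 2-fold higher in the 6 and 0 lower, and of 14 in the 5 there were 6 and 0. Of 9 venous genes 2 were at least 2-fold higher in the 6 and 4 lower, and in the 5 they were 1 and 3. Fabp5, a fatty acid carrier, was 1620 CPM in the 6 and 1899 in the 5, against 163. In VCD_Low_E2_P4 10 blood cells had 2 or more Cldn5 UMIs, and no blood cell there had over 4.

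**Figure D3:**
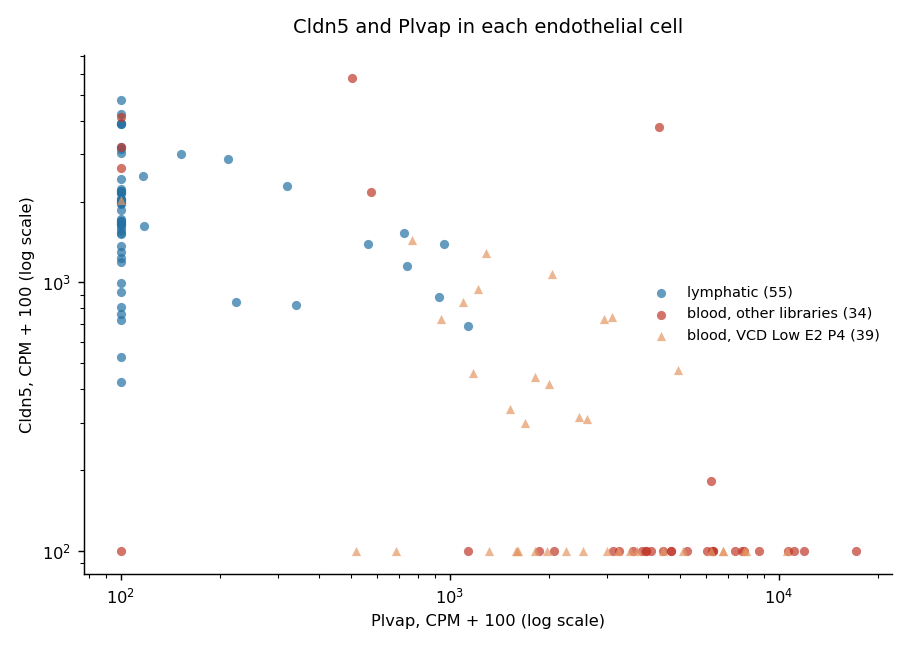
Cldn5 against Plvap in each of the 128 endothelial cells, CPM + 100 on log axes. Lymphatic cells (blue) lie high in Cldn5 and mostly low in Plvap, most blood cells lie low in Cldn5 and high in Plvap, and a few blood cells have Cldn5 with little Plvap.

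Pericyte genes went with a set of blood cells. Of 73 blood cells 23, from 6 libraries, held 5 or more of 11 markers of pericytes, the contractile cells wrapped round capillaries, and 0 of 55 lymphatic cells did. The cells were divided by these markers, so pericyte genes in them are no finding. The 23 had a median of 17946 UMIs and 25 of the 28 endothelial genes, against 4766 UMIs and 21 genes in the other 50. Flt1 was alike in both (1535 and 1709 CPM), and Plvap was 3417 against 5629 CPM. The share of such cells moved with the library: 0 of 4 in VCD_Vehicle and 2 of 10 in VCD_Vehicle_NormEnv, 0 of 5 in VCD_E2_ICI, 3 of 6 in VCD_E2, 3 of 3 in VCD_Low_E2 and 13 of 39 in VCD_Low_E2_P4. Libraries with 1 or 2 blood cells had 1 of 2 in Intact, 1 of 1 in VCD_E2_P4, 0 of 1 in VCD_High_PBDE and 0 of 2 in VCD_High_PBDE_E2_P4. Such counts depend on depth, and median blood depth ran from 2640 UMIs in VCD_High_PBDE_E2_P4 to 33017 in VCD_Low_E2. As a share of UMIs the list took 0.0198% in VCD_Vehicle, 0.0780% in VCD_Vehicle_NormEnv and 0.0859% in VCD_E2_ICI. It took 0.280% in VCD_E2, 0.279% in VCD_Low_E2, 0.214% in VCD_Low_E2_P4 and 0.1705% in VCD_High_PBDE_E2_P4.

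Clustering of the 128 cells gave 5 clusters. The largest held 38 cells, 36 of them lymphatic, from 9 libraries, and was lymphatic-like. A further lymphatic-like cluster of 17 cells from 6 libraries held all 3 cells without Ccl21a and was led by Nts (2668 against 153 CPM in all other endothelial cells) and the phosphatase gene Dusp2 (1026 against 88.5 CPM). Lyz2 and Retnla, known from macrophages, also headed it, but 118 of 125 Lyz2 UMIs and 98 of 105 Retnla UMIs lay in the immune-marked cell of VCD_High_PBDE. Without that cell Lyz2 was 14.7 CPM, against 10.7, while Nts was 2553 and Dusp2 1020 CPM. A capillary-like cluster held 31 blood cells from 7 libraries, with Rgcc at 1489 against 125 CPM. Of the other 2 clusters, one of 14 blood cells from 7 libraries was also capillary-like by its markers. It was led by Cyp26b1, Sema5a and Ano1, and held the pericyte marker Higd1b at 212 against 5.29 CPM. Each of its cells held from 3 to 10 of the 11 pericyte markers, and most were among the pericyte-marked blood cells described above. Its capillary-like name is therefore uncertain. One of 28 cells, all from VCD_Low_E2_P4, was venous-like by its markers but led by neutrophil and muscle genes (S100a9, S100a8, Acta1, Ckm). That name is uncertain, since 27 of its cells had over 1% of UMIs from other types. Sizes were not compared between groups, since the genes of the clusters may differ with the treatment.

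Nuclear receptors for the hormones given were almost absent from endothelial cells. Esr1, the estrogen receptor alpha gene, had 2 UMIs in 1 lymphatic cell, one of the 3 without Ccl21a, and 1 UMI in the blood cells. Fibroblasts of the same libraries had it in 51.0% of cells, at 56.6 CPM, with a median depth of 17566.5 UMIs. Esr2 had 0 UMIs in both classes, which allows up to 2.67 CPM in lymphatic and 4.41 CPM in blood cells. The progesterone receptor Pgr had 0 UMIs in lymphatic and 3 in blood cells, and the membrane estrogen receptor Gper1 0 and 7. Pgrmc1, a membrane protein named a progesterone receptor component, was found in both classes, at 176 CPM in lymphatic and 165 CPM in blood cells with overlapping libraries. The glucocorticoid receptor Nr3c1 was 292 CPM in lymphatic and 172 CPM in blood cells, with overlapping libraries.

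The mineralocorticoid receptor Nr3c2 was found mainly in lymphatic cells. It stood at 81.0 CPM there (65.2 to 99.4) and at 11.8 CPM in blood cells (5.08 to 23.2), a 6.88-fold difference. Over lymphatic libraries it was 120 CPM in Intact, 86.4 in VCD_E2, 112 in VCD_Low_E2, 38.1 in VCD_Low_E2_P4, 71.8 in VCD_Vehicle_NormEnv and 0 in VCD_High_PBDE, so that the ranges of the classes overlapped. UMIs were found in 36 of 55 lymphatic cells and 7 of 73 blood cells, and at 2000 UMIs per cell in 11 of 55 and 0 of 68, with 5 shallower blood cells left out. Fibroblasts had it in 7.40% of cells and immune cells in 0.996%, at median depths of 17566.5 and 7210 UMIs. The xenobiotic receptor Ahr was 2.24-fold higher in lymphatic cells (56.1 CPM). Of the Ahr targets, Cyp1a1 and Ahrr had 0 UMIs in all 128 cells and Cyp1b1 6 UMIs in blood cells, all from VCD_Low_E2_P4, whose blood cells carried most fibroblast RNA. Tiparp was found in both classes, at 240 CPM in lymphatic and 263 CPM in blood cells with overlapping libraries. Nqo1, a quinone reductase that Nrf2 also induces, was 91.7 CPM in lymphatic cells, from 67.8 to 122 over libraries, and had 1 UMI in blood cells. The receptors Nr1i2 and Nr1i3, xenobiotic sensors of the liver, had 0 UMIs.

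The planned gene-wise fits of E2, P4 and PBDE needed libraries with at least 10 cells, and 1 of the 9 crossed libraries had 10 blood cells. The E2 libraries with at least 3 cells were compared with the VCD libraries without hormone instead. This comparison was chosen after seeing the data, and it mixes PBDE levels and P4. In blood cells VCD_E2 (6 cells), VCD_Low_E2 (3) and VCD_Low_E2_P4 (39) were compared with VCD_Vehicle (4) and VCD_Vehicle_NormEnv (10). Low PBDE was thus present only on the E2 side, and the fit below had no PBDE term, so E2 and low PBDE were not separated. Of 3232 genes with a mean of 50 CPM or more, 12.4% were above in all E2 libraries and 12.7% below.

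In a fit across 1504 genes, 9 genes (0.598%) were higher with E2 and 0 (0.0%) lower (edgeR quasi-likelihood test, adjusted p under 0.05). At an unadjusted p under 0.05 (edgeR) they were 87 and 82. Genes entered with 10 counts in 3 libraries, and 2 libraries were without hormone. A gene counted only without hormone could thus not be tested, while one counted only with E2 could. Myl9, for instance, had 0 and 1 UMIs without hormone. The filter thus favours calls of higher genes over lower ones. Of 8 pericyte markers tested 3 rose: Tagln, an actin-binding protein of smooth muscle (log2 difference 3.77, edgeR adjusted p = 0.0354), Des, the filament protein desmin (3.11, 0.0393) and Rgs5, a regulator of G protein signalling (2.08, 0.0393). Also called, and on none of the gene lists, were Myl9 and Cald1, of the contractile apparatus, the matrix genes Postn, Col6a2 and Mgp, and the cytokine gene Il6. Mgp was 467 to 3583 CPM with E2 against at most 33.0 CPM without hormone, but 280 of its 315 UMIs in VCD_Low_E2 lay in 1 cell. Il6 was 242.7 CPM in VCD_E2, 603 in VCD_Low_E2 and 535 in VCD_Low_E2_P4, against 0 in VCD_Vehicle and 36.01 in VCD_Vehicle_NormEnv, and all its UMIs in VCD_E2 and in VCD_Low_E2 lay in 1 cell each. In VCD_E2_ICI, which the fit did not use, Tagln was 312.5 CPM (8 UMIs), Rgs5 391 (10 UMIs) and Il6 195 (5 UMIs), all above the libraries without hormone, and Des was 78.1 CPM (2 UMIs). The libraries also differed in cells with pericyte markers and in fibroblast RNA, and a link of either to these calls was not tested. Cells with 5 or more pericyte markers, Tagln, Des and Rgs5 among them, were 3 of 6, 3 of 3 and 13 of 39 with E2 and 0 of 4 and 2 of 10 without. These counts also depend on depth. The blood cells of VCD_Low_E2_P4 also carried most fibroblast RNA, and its 26 cells with fewer than 5 pericyte markers held 83 of 120 Postn UMIs and 112 of 130 Mgp UMIs. With cells of at most 1% of UMIs from other cell types, 14 of them in VCD_Low_E2_P4, 0 of 1463 genes were called (edgeR; 87 higher and 61 lower at an unadjusted p under 0.05), and the log2 differences were 3.103 for Des, 2.005 for Rgs5 and 2.598 for Postn (adjusted p = 0.0894, 0.0894 and 0.327). No gene was called without VCD_Vehicle, VCD_E2 or VCD_Low_E2, 7 were without VCD_Low_E2_P4, and 31 without VCD_Vehicle_NormEnv. Of 12 interferon-induced genes, 19 receptors and ligands and 27 endothelial genes tested, 0 passed. The values of these groups are given as a description below.

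Of 25 interferon-induced genes 8 were above in every E2 library and 1, Ifi35, was below, against 12.4% and 12.7% of all genes. Ifit1, an antiviral RNA-binding protein, was 34.1 CPM in VCD_Low_E2 (3 UMIs), 412 in VCD_E2 and 427 in VCD_Low_E2_P4, against 16.5 in VCD_Vehicle (1 UMI) and 0 in VCD_Vehicle_NormEnv. Of the 34 Ifit1 UMIs of VCD_E2 24 lay in 1 cell. Ifit3 was 68.2 to 134 CPM with E2, and 0 UMIs were found in both libraries without hormone. Irf7, the master transcription factor of interferon induction, was more even: 158 in VCD_E2 (4 of 6 cells), 159 in VCD_Low_E2 (3 of 3 cells) and 212 in VCD_Low_E2_P4 (25 of 39 cells), against 33.0 in VCD_Vehicle (1 of 4 cells) and 36.01 in VCD_Vehicle_NormEnv (3 of 10 cells). In VCD_E2_ICI, where E2 was given with its antagonist, Irf7 had 1 UMI and Ifit1 and Ifit3 had 0 UMIs in 5 cells, which allows up to 117 CPM. This limit lies below Ifit1 in VCD_E2 and VCD_Low_E2_P4 and above Ifit1 in VCD_Low_E2. In the fit Irf7 had a log2 difference of 2.43 and did not pass (edgeR adjusted p = 0.0774). In VCD_E2 these UMIs lay mostly in cells with pericyte markers: the 3 cells with fewer than 5 of them held 1 Irf7 UMI and 0 of Ifit1 and Ifit3. The 26 such cells of VCD_Low_E2_P4 had 175 CPM of Irf7, 98.7 of Ifit1 and 106 of Ifit3. The other 5 of the 8 were the GTPases Igtp, Irgm1, Gbp2 and Gbp7 and the peptide transporter Tap1.

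The whole list did not divide the libraries as cleanly, with 0.484% of UMIs in VCD_Low_E2 against 0.492% in VCD_Vehicle. It was 0.626% in VCD_E2, 0.793% in VCD_Low_E2_P4, 0.446% in VCD_Vehicle_NormEnv and 0.359% in VCD_E2_ICI. In the fibroblasts of the same 6 libraries it was 0.517% to 0.556% with E2, 0.298% and 0.305% without hormone and 0.232% with ICI. Without VCD_Low_E2_P4 8 of 22 interferon-induced genes were above in both E2 libraries, with a background of 19.1%. Blood cells with 5 or more pericyte markers had a median of 0.606% of UMIs from the list, and the others 0.533%.

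Values of many vascular receptors lay lower in the E2 libraries, though none passed in the fit. Of 23 receptors and ligands of VEGF, Notch, angiopoietin, BMP and ephrin signalling, 11 were below in every E2 library and 3 above, and of the 28 endothelial genes 12 were below and 2 above. Over all genes 12.7% were below and 12.4% above. Kdr was 619 CPM in VCD_E2, 1058 in VCD_Low_E2 and 445 in VCD_Low_E2_P4, against 2162 in VCD_Vehicle and 1140 in VCD_Vehicle_NormEnv. Nrp1 was 722 to 1263 against 1776 to 2970 CPM, and Plvap 2269 to 4345 against 7621 to 7871 CPM. Dll4, the Notch ligand of tip cells, was 12.1 to 68.2 against 168 to 182 CPM. In VCD_E2_ICI Kdr was 664 and Nrp1 1250 CPM, within the range of the E2 libraries, while Plvap was 5430 CPM, between the groups. Adjusted p-values from edgeR were 0.26 for Kdr, 0.144 for Nrp1, 0.102 for Plvap and 0.262 for Dll4. Tek, the angiopoietin receptor, was 114 to 194 against 49.5 to 96.0 CPM. Pericyte genes moved with these values: 7 of 9 were above in every E2 library, against 12.4% of all genes. Among them were Rgs5 (626 to 910 against 132 to 228 CPM) and Des (172 to 193 against 16.5 to 24.0 CPM). In blood cells with fewer than 5 pericyte markers Kdr was 786 CPM in VCD_E2 (3 cells) and 387 in VCD_Low_E2_P4 (26 cells), against 2162 in VCD_Vehicle (4 cells) and 1016 in VCD_Vehicle_NormEnv (8 cells). In the same cells Nrp1 was 681.5 and 736 against 2970 and 1654 CPM, and Plvap 3984 and 4349 against 7871 and 8049 CPM, while VCD_Low_E2 had no such cell. In the 14 blood cells of VCD_Low_E2_P4 with at most 1% of UMIs from other types, Kdr was 613.5, Nrp1 953 and Plvap 5215 CPM, nearer to the libraries without hormone than in all its 39 cells. Without VCD_Low_E2_P4 12 of 22 receptors and ligands were below, with a background of 16.9%.

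In the blood cells of the E2 libraries, known targets of the steroid receptors were above no more often than all genes. They were below more often than all genes (12.7%), in small lists. Of 9 estrogen receptor targets 1 (11.1%) was above, against 12.4% of all genes, and 3 below in every E2 library, the latter including Ccnd1 (cyclin D1), at 72.8 to 205 against 228 to 446 CPM. Of 10 targets shared by progesterone and glucocorticoid receptors 1 (10.0%) was above and 4 below, against 12.7% of all genes below. None of the targets tested in the fit passed. Sgk1, a kinase induced by glucocorticoids, was 628 to 1128 against 1644 to 1914 CPM.

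Lymphatic cells of VCD_E2 (3 cells), VCD_Low_E2 (16) and VCD_Low_E2_P4 (12) were compared with those of VCD_Vehicle_NormEnv (9) and VCD_High_PBDE (3, of which 1 without Ccl21a held 18635 of 29501 UMIs). Low PBDE again lay only on the E2 side and high PBDE only on the other, so PBDE was not separated from E2. Of 3157 genes 10.5% were above in all E2 libraries and 9.44% below. In a fit across 2221 genes 0 (0.0%) were called (edgeR quasi-likelihood test; 38 higher and 31 lower at an unadjusted p under 0.05), while 2 were called without VCD_High_PBDE and 16 without VCD_Vehicle_NormEnv. Of the 15 lymphatic genes 0 were above and 0 below. Of 9 interferon-induced genes 3 were above: Ifi27l2a was 494 to 831 against 298 to 373 CPM, Bst2, which tethers virus particles, 309 to 388 against 170 to 260 CPM, and Ly6e 580 to 778 against 441 to 564 CPM. Intact lymphatic cells had 529 CPM of Ifi27l2a and 246 CPM of Bst2. Of 24 nuclear genes of the respiratory chain 7 were below and 1 above, and of 7 genes of hypoxia and glycolysis 3 were below, among them Gapdh (432 to 519 against 564 to 881 CPM). Estrogen targets were 1 above and 1 below of 9.

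P4 was looked at in the lymphatic cells of VCD_Low_E2_P4 and VCD_Low_E2, with 12 and 16 cells, and not in the blood cells of this pair, of which VCD_Low_E2 held 3. At least 2-fold higher with P4 were 8.19% of 3784 genes and 7.85% were lower. Of 11 progesterone and glucocorticoid receptor targets 0 were higher and 3 lower, with a median log2 ratio of -0.60. Of the 15 lymphatic genes 1 was lower. All 10 fibroblast markers were higher, so that this pair also differed in RNA of other cells.

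The 39 blood cells of VCD_Low_E2_P4 were last set against the 34 of all other libraries. Of 3681 genes 7.28% were at least 2-fold higher there and 6.68% lower. Of 28 interferon-induced genes 11 were higher and 0 lower, and 9 of 10 fibroblast markers were higher. In the 14 cells with at most 1% of UMIs from other types 15 of 29 interferon-induced genes were higher and 0 lower, with a median log2 ratio of 1.04 and a background of 5.01% higher and 6.52% lower, while 1 of 6 fibroblast markers was. The list took 2.84% of the UMIs of 1 of these 14 cells and 0.331% to 1.04% in each of the others. Single blood cells of the other libraries ran from 0.161% to 1.365%. Cxcl10, a T cell chemokine, had 222 UMIs in 18 of the 39 cells (797 CPM, 33.8% of them from 1 cell) and 0 in the 34 others. Iigp1 was 1253 CPM, and 1521 CPM in the 14 cells, against 156 to 934 CPM in the other libraries. Isg15, a ubiquitin-like protein, was 445 CPM against 78.1 to 273 CPM. Genes of leukocyte adhesion were higher in 6 of 12 cases, and in 1 of 9 in the 14 cells. Lymphatic cells of the same library had 1 of 13 interferon-induced genes higher, with a background of 5.41%, and 2 lower, with a background of 6.16%. E2, P4, low PBDE and the library itself cannot be told apart in these cells.

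**Figure D4:**
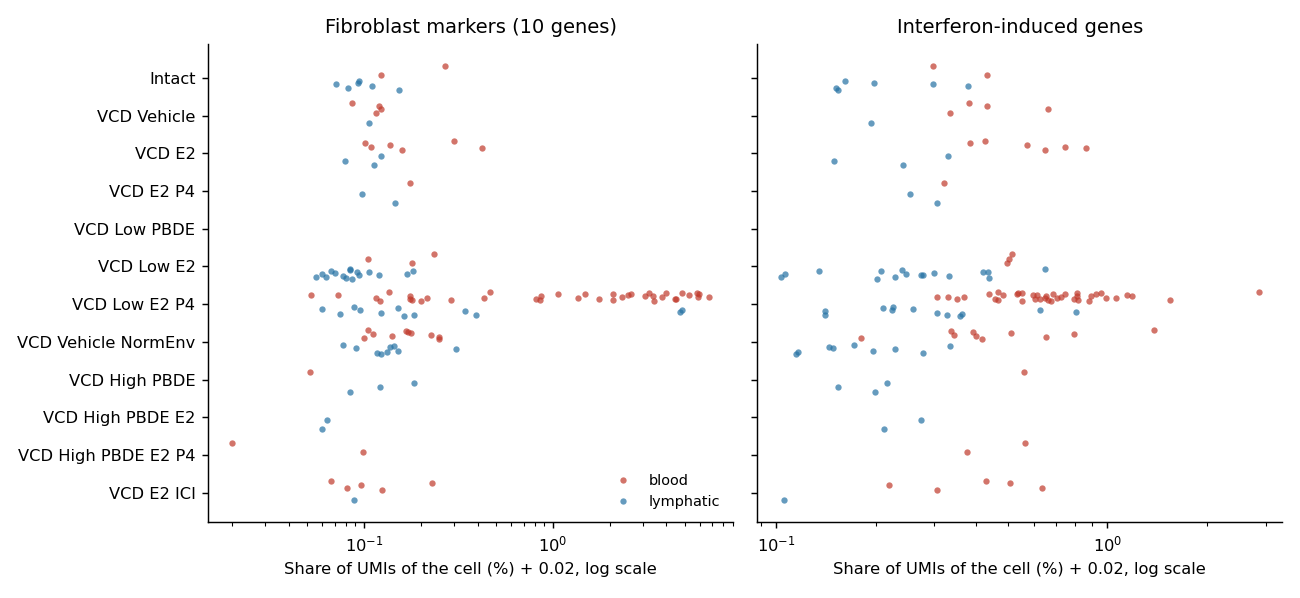
Share of each endothelial cell's UMIs from 10 fibroblast markers (left) and from interferon-induced genes (right), in percent + 0.02 on a log axis, by library. Blood cells (red) of VCD_Low_E2_P4 reach 6.74% of UMIs from fibroblast markers while those of other libraries stay at or below 0.401%; blood cells lie above lymphatic cells (blue) for interferon-induced genes in most libraries.

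Of 20 cell cycle genes 4 reached 50 CPM in either class. Pcna, the replication clamp, was 58.7 CPM in lymphatic and 149 CPM in blood cells, Hmgb2 101 and 121 CPM (79.7 in blood cells outside VCD_Low_E2_P4) and the tubulin gene Tuba1b 378 and 335 CPM, with overlapping libraries. The mitotic genes Mki67 (0 UMIs in lymphatic and 1 in blood cells) and Top2a (0 and 7) were too sparse to compare between conditions.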

How the data were processed

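Glands freed of lymph nodes were digested with collagenase and DNase, strained and cleared of red and dead cells, and the suspensions were sequenced with the Chromium 3′ v3 chemistry. The authors aligned the reads to mm10 and counted UMIs with Cell Ranger 3.1.0, and the deposited matrices hold raw counts for 27998 genes. Groups were taken from the sample labels. Members, gene lists and comparisons were chosen with earlier results of these data known. Counts were summed over the cells of a class and library and given as CPM, in libraries with at least 3 cells of the class. Zero counts were read as at most 3 counts over the class. Intervals are 95% Clopper-Pearson or Poisson and cover counting error. Shares were compared as log2((cells + 0.5)/(kept + 1)) by exact permutation of hormone within PBDE level, or of PBDE within hormone level. Named genes were the gate genes, members of the fixed lists, steroid receptors and the leading genes of each class and cluster, and others are stated as chosen after their values were seen. Some genes are not reported here. Leiden clustering (resolution 0.8, 15 components, 1500 variable genes) and Scrublet were run in scanpy 1.11.5, with numpy 2.4.6, scipy 1.17.1, pandas 2.3.3 and Python 3.11.15; doublets were scored but not removed. Promoters came from RefSeq (GRCm38.p6) and positions from GENCODE (GRCm38). Alternatives covered the gate, the mitochondrial limit, the denominator, the exclusion genes, the cluster resolution, VCD_Low_E2_P4 and cells with RNA of other types. The fits across all genes that were planned for E2, P4 and PBDE, and their alternatives, were not run, since too few libraries held 10 cells. An edgeR 4.0.16 quasi-likelihood fit of E2 (R 4.3.3, TMM, genes with 10 counts in 3 libraries, Benjamini-Hochberg, tested on simulated data) was added on libraries with 3 or more cells, with each library as 1 value, and P4 and PBDE were not fitted.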

Additional observations from a re-analysis of the deposited data

How the results depend on the processing

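The exact permutation tests of PBDE on the endothelial share could not go below p = 0.25 under any alternative, nor the E2 test below 0.0556 without VCD_Low_E2_P4, so their p-values say nothing of stability. Elsewhere the exact permutation p for E2 lay between 0.111 and 0.444. The E2 difference in log2 share stayed positive, from 0.956 with a 10% mitochondrial limit to 1.9 without immune barcodes in the denominator. The low PBDE difference turned to -0.0805 with a gate of 5 UMIs, to -0.24 in blood cells alone and to -1.51 without VCD_Low_E2_P4, and the high PBDE difference to 0.12 in lymphatic cells alone. Clusters numbered 4 at resolution 0.4 and 6 at 1.2. Of 20 log2 ratios of lymphatic over blood cells, those of Cxcl10 and Selp reversed. The 20 include the gate genes, and also Prox1 and Mmrn1, which are 0 in blood cells by the choice of class and could not reverse. Cxcl10 went from -5.91 to 2.59 without VCD_Low_E2_P4. Selp went from -1.48 to 4.92 without it and to 1.43 in cells with at most 1% of UMIs from other types, since its UMIs lay in 4 blood cells of that library and 2 lymphatic cells without Ccl21a. The alternatives without VCD_Low_E2_P4 for ratios and for the E2 libraries, those on blood or lymphatic cells alone, on the exclusion genes and on RNA of other types were chosen after seeing the data. The planned share with lymphatic cells included was the main share. The planned gene-wise fits and all their alternatives, among them other normalizations, filters and each library left out, gave no value, because 1 of 9 crossed libraries had 10 blood cells and 2 had 10 cells with lymphatic cells included. In the added edgeR fit of E2, 9 genes were called in blood cells with TMM and with RLE normalization, 110 without a filter on low counts, 0 with cells of at most 1% of UMIs from other types and from 0 to 31 with 1 library left out. In lymphatic cells 0 were called with TMM, with RLE and with such cells, 23 without the filter and from 0 to 16 with 1 library left out, and where this left 1 library without hormone, it was assumed to vary like the others. No paired analysis was possible because each group was a single library and the replicate numbers pair nothing. Depth limits all level comparisons: most libraries held 1 to 6 blood cells, and a count of 0 cells allows a share of 0.0396% to 0.15% in a library.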
